A study of Mus musculus with 2 samples.

Results

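The cytosolic ribosomal proteins were examined in primary mouse myoblasts exposed to Wnt3a. Members were the genes whose symbol is Rpl or Rps with a number, or Rpsa, Rplp0, Rplp1 or Rplp2, that have a probe set which the platform annotation assigns to 1 gene only. Pseudogenes and the Rps6k kinases were left out. The rule used names and annotation, not measured differences, but it was chosen with earlier results of these data known. It gave 46 genes with 100 probe sets, of 18193 genes with a single-gene probe set on the array: 24 genes of the large and 22 of the small subunit. Where a gene had several such probe sets, the one with the highest average intensity stood for it.

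Myoblasts, the muscle precursor cells, came from newborn Sv129 mice and were grown on laminin and collagen. The treated culture received Wnt3a, a secreted protein whose signal stabilises β-catenin, at 100 ng/ml for 4 hours in DMEM with 2% horse serum. The control culture had the same medium for the same time without Wnt3a. Each condition had 1 array. No difference therefore has a replicate check, and no p-value was computed.

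Ribosomal proteins assemble with ribosomal RNA into a small subunit, which reads the mRNA, and a large subunit, which joins amino acids. Their transcripts are among the most abundant of growing cells, and most begin with a C followed by a run of pyrimidines, the terminal oligopyrimidine (TOP) element, through which mTORC1 and the RNA-binding protein LARP1 control their translation. Myc and ETS-family factors are known to bind ribosomal protein promoters. In muscle, growth depends on ribosome supply, and Rpl3l, a paralog of Rpl3, is a known ribosomal protein of differentiated heart and skeletal muscle.

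Annotated starts of members toward both ends of the range of differences are printed to show where pyrimidine runs lie around the start. The measurements beside them read RNA amount and not translation. Among the lower members Rps20, Rpl10a and Rps24 differed more than Rpl14, but they are not among those printed. RefSeq promoters of GRCm38.p6 were found for 40 of the 46 members, in 48 windows. The windows below run 15 bases to each side of the annotated start for the 4 highest and 4 lowest measured members that have 1 listed start. They are given 5′ to 3′ on the gene's strand, and capitals mark a run of at least 6 pyrimidines that touches the 11 bases around the start. The position follows in the text.
Rps9: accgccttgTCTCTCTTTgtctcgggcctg
Rpl11: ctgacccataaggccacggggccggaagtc
Rpl41: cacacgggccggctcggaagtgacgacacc
Rpl39: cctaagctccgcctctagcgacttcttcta
Rpl27a: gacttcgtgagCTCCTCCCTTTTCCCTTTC
Rps25: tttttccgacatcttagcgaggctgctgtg
Rps6: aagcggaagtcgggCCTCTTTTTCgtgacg
Rpl14: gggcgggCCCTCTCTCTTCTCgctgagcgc

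The higher members lie at chr7:3704026-3704055 (Rps9, plus strand), chr4:136053379-136053408 (Rpl11, minus strand), chr10:128549154-128549183 (Rpl41, minus strand) and chrX:37085208-37085237 (Rpl39, minus strand). The lower ones lie at chr7:109519180-109519209 (Rpl27a, plus strand), chr9:44407699-44407728 (Rps25, plus strand), chr4:86857353-86857382 (Rps6, minus strand) and chr9:120571502-120571531 (Rpl14, plus strand). Each window spans the last bases of the promoter and the first of the transcript, by the listed start. For Rps9 that start lies downstream of the gene's RefSeq start at 3703954, so its printed window may lie inside a longer transcript. A pyrimidine run was present in 1 of the 4 higher and 3 of the 4 lower members. Over all member windows the share was 45.8%, and over all windows 21.0%. Such a run is not in itself a TOP start. Of the printed windows only those of Rps6 and Rpl14 have a C followed by at least 4 pyrimidines at the listed start. The runs of Rps9 and Rpl27a do not. Higher and lower here rest on single-gene probe sets. On brighter probe sets that the annotation shares with other loci, Rpl39 was at -0.030, Rps6 at 0.018 and Rps25 at 0.29 (log2, Wnt3a minus control). Rpl27a and Rpl14 stayed lower there, at -0.040 and -0.035. No direction was read from the count, and an annotated start can lie some bases from the start used in myoblasts.

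The probe sets that stood for the ribosomal proteins read nearly alike with Wnt3a and in the control, most of them near the top of the intensity scale. A gene counted as measured where its probe set reached 6 on the log2(intensity + 1) scale in at least 1 array, which held for 42 of the 46 members and for 11398 genes in all. Of the 42 measured members, 21 were higher and 21 lower with Wnt3a, with a median difference of -0.0011 (Wnt3a minus control, log2 scale). Over all measured genes 5390 were higher and 5839 lower, and the median was -0.0056. None of the 42 differed by 1.5-fold or 2-fold, against 1.24% and 0.325% of all measured genes. A difference of at least 0.1, about 1.07-fold, was reached upward by 4 members (20.0% of all measured genes) and downward by 1 member (23.6% of all measured genes). These counts take the middle of all genes on the array as no change. Scaling on 42 spike-in probe sets would add 0.19 to every difference and make 41 of the 42 members higher. These spike-in probe sets pool the BioB, BioC, BioD and Cre controls with the Dap, Lys, Phe and Thr controls. Whether their median follows RNA input was not tested. Setting the median of all measured genes to 0 gave 26 higher and 16 lower, with a member median of 0.0046.

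**Figure D1:**
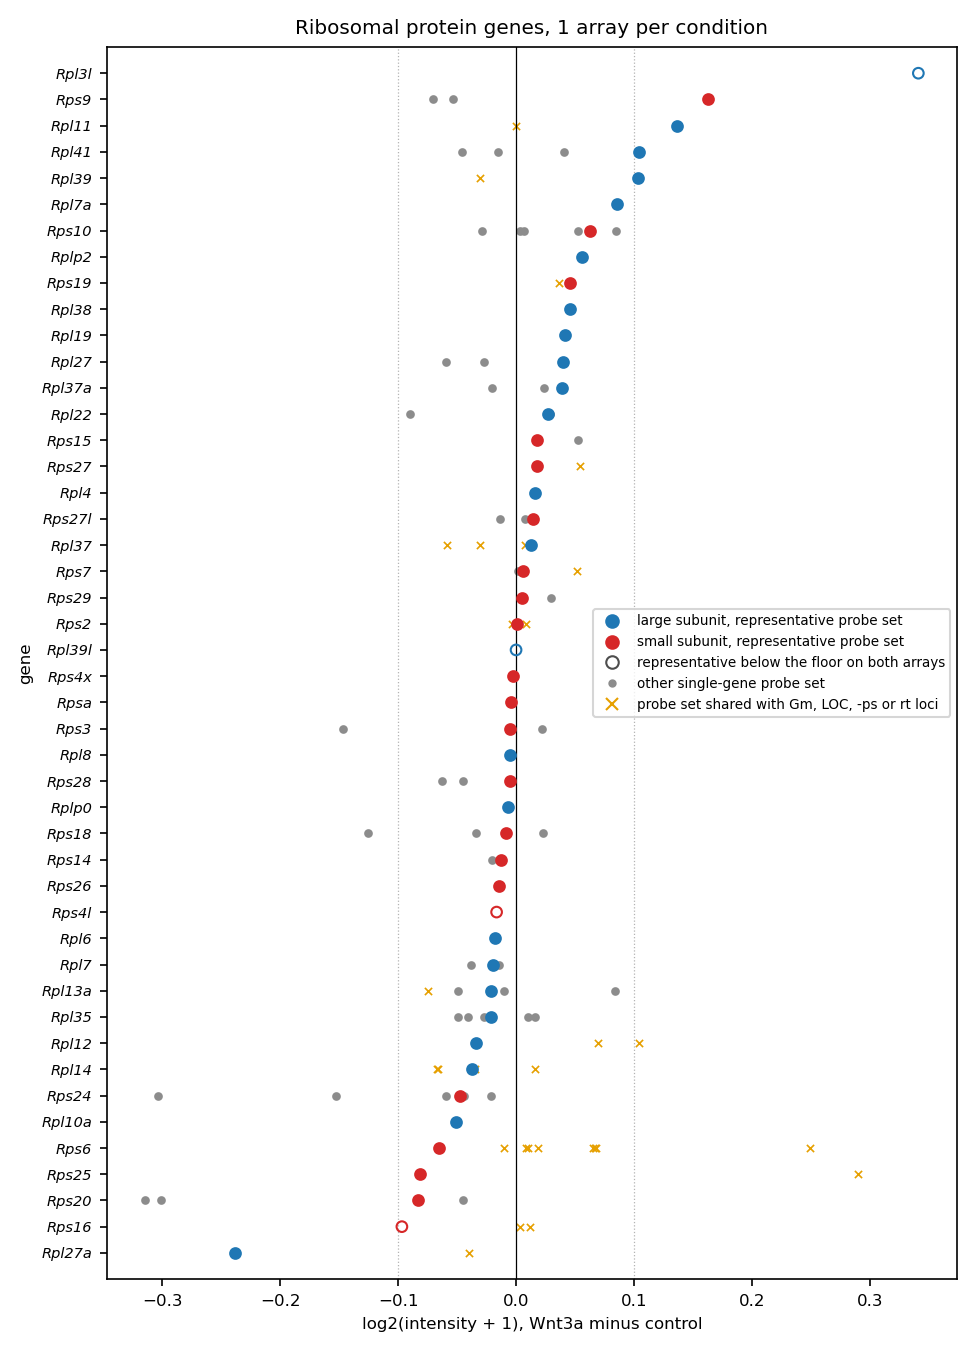
Difference between the Wnt3a and the control array on the log2 scale (x axis) for each of the 46 ribosomal protein genes (y axis). Large points are the representative probe sets, open where both arrays are below the floor. Small grey points are other single-gene probe sets that reached the floor, orange crosses are probe sets shared with other loci, and dotted lines mark 0.1 in each direction. Of the measured genes 37 lie within the dotted lines.

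The representative probe sets were mostly very bright. In 32 of the 42 measured members both arrays read at least 14 on the log2 scale (an intensity of 16383), where 74 genes of the array lay in all. Among these 32 the differences ran from -0.083 to 0.10 with an SD of 0.039 across genes. The other 42 genes in that range, which fall outside the naming rule, ran from -0.16 to 0.075 with an SD of 0.043. They include the small-subunit gene Rps3a1 and other genes of the translation machinery or with TOP transcripts, such as Eef1a1, Eef2 and Tpt1. The 10 measured members under 14 on an array were more spread, from -0.24 to 0.16 with an SD of 0.12. The narrow spread was thus also seen in other bright genes. Over all probe sets of the array the SD of the difference was 0.044 at a mean of 14 or more and 0.22 from 6 to 10. Of the 207 probe sets at 14 or more, 120 belong to ribosomal protein genes, shared ones included. The highest intensities were 36604 with Wnt3a and 37075 in the control. Whether signals this near the top still follow RNA amount (saturation) was not tested, so a small difference there does not show that the transcript did not change. An intensity is also not a transcript level that can be set against another probe set's.

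**Figure D2:**
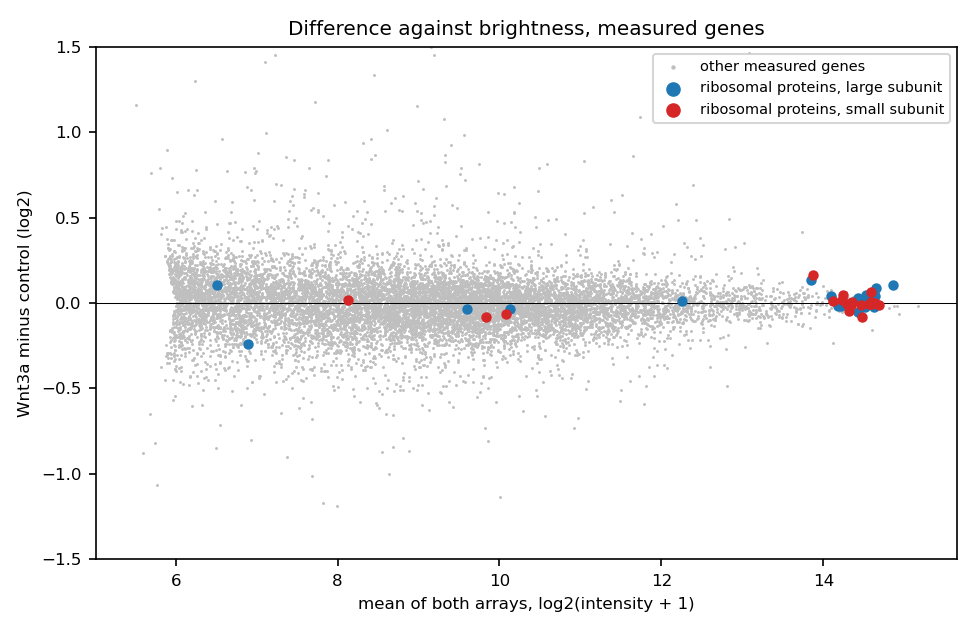
Difference (y axis, log2, Wnt3a minus control) against the mean of both arrays (x axis, log2(intensity + 1)) for measured genes in grey and ribosomal protein members in blue (large subunit) and red (small subunit). Most members lie above 14, where the grey points are also close to 0. The y axis leaves out 19 genes that differ by more than 1.5.

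In the large subunit 12 of 22 measured members were higher with Wnt3a, with a median difference of 0.014. Rpl11, which binds the p53 regulator Mdm2 when ribosome assembly is disturbed, read 15425 with Wnt3a and 14029 in the control, a log2 difference of 0.14. Its only other probe set, shared with a Gm locus, read 66.7 on both arrays. Rpl41, a very short basic protein, read 30876 with Wnt3a and 28722 in the control (0.10), and its other probe sets gave from -0.046 to 0.041. Rpl7a, a protein of the large subunit, read 26583 with Wnt3a and 25045 in the control (0.086, 1 probe set). Rpl11 and Rpl7a rest on 1 single-gene probe set each, and the probe sets of Rpl41 do not share a sign.

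Rplp0 and Rplp2 are proteins of the stalk that recruits elongation factors. Rplp2 read 25775 with Wnt3a and 24798 in the control (0.056). Rplp0 read 23943 with Wnt3a and 24060 in the control (-0.0070). Rpl38, which in mouse embryos affects translation of Hox mRNAs, read 23923 with Wnt3a and 23176 in the control (0.046). Of the peptide exit tunnel and its rim, Rpl19 was at 0.042, Rpl4 at 0.016 and Rpl35 at -0.022. Rpl27 and Rpl37a were at 0.040 and 0.039. All of these differences were smaller than 0.1.

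The lowest measured member was Rpl27a, at 108 with Wnt3a and 128 in the control, a log2 difference of -0.24. This probe set was dim, and a bright one that the annotation shares with several Gm loci read 21121 with Wnt3a and 21711 in the control (-0.040). Rpl39, a small protein of the exit tunnel, read 93.3 with Wnt3a and 86.8 in the control (0.10), while its shared bright probe set read 25758 with Wnt3a and 26303 in the control (-0.030). Both large values thus came from dim probe sets, and the bright ones of the same genes lay nearer 0. Rpl10a, Rpl14, Rpl12 and Rpl13a were at -0.051, -0.037, -0.034 and -0.021.

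In the small subunit 9 of 20 measured members were higher with Wnt3a, with a median difference of -0.0036. Rps9, a protein of the mRNA entry side, was highest, at 15847 with Wnt3a and 14158 in the control (0.16). Its other probe sets were dimmer and went the other way, at -0.071 and -0.054. Rps10, in the head of the small subunit, read 25096 with Wnt3a and 24030 in the control (0.063). Rps19, the gene most often mutated in Diamond-Blackfan anaemia, read 19680 with Wnt3a and 19064 in the control (0.046). Rpsa, also known as the laminin receptor precursor, read 24724 with Wnt3a and 24795 in the control (-0.0042). Of 10 measured Diamond-Blackfan genes on a list of 15, 7 were higher and 3 lower, and their median was 0.012 beside -0.0056 for all measured genes.

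Rps20 was the lowest small-subunit member with a bright probe set, at 22131 with Wnt3a and 23449 in the control (-0.083). All 4 of its probe sets were lower with Wnt3a, the dim ones most. One dim probe set read 113 with Wnt3a and 141 in the control (-0.31) and another 135 with Wnt3a and 166 in the control (-0.30). In Rps24 all 6 probe sets were also lower, but without a regular order by brightness. Its brightest probe set was at -0.047, and the lowest at -0.30, with 434 with Wnt3a and 536 in the control. A probe set dimmer than the brightest lay nearer 0 (-0.021), and the dimmest, at 93.1 with Wnt3a, was at -0.15. Rps20 and Rps24 were the members with the lowest single-gene probe sets.

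Rps6, the substrate of the S6 kinases downstream of mTORC1, shows how much a value rests on the probe set. Its brightest single-gene probe set read 1060 with Wnt3a and 1110 in the control (-0.065). The bright probe set shared with a pseudogene read 30755 with Wnt3a and 30366 in the control (0.018). Across the 9 measured probe sets the differences ran from -0.065 to 0.25. Rps25, a protein needed by several viral internal ribosome entry sites, was split more widely. Its single-gene probe set read 883 with Wnt3a and 934 in the control (-0.081), while a shared one read 13262 with Wnt3a and 10848 in the control (0.29, 1.22-fold). No other shared probe set differed upward by as much.

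Of the paralogs Rps27l, Rpl3l, Rpl39l and Rps4l, which the naming rule includes, Rps27l alone reached the floor. Rps27l, a p53-induced relative of Rps27, read 17898 with Wnt3a and 17723 in the control (0.014). Rps27 itself read 281 with Wnt3a and 277 in the control (0.018) on its single-gene probe set. On its brighter shared one it was at 0.054. Rpl3l, the muscle paralog, read 20.8 with Wnt3a and 16.2 in the control, below the floor on both arrays. Rpl39l, a paralog known from testis, read 14.98 on both arrays. Rps4l, a relative of Rps4x, read 50.6 with Wnt3a and 51.2 in the control. Rps16 was also below the floor on its single-gene probe set, at 15.1 with Wnt3a and 16.2 in the control, although a shared probe set read 28061 with Wnt3a and 27989 in the control (0.0037). Values below the floor say little about the transcript, as the reading of Rps16 shows.

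Many ribosomal protein genes have processed copies in the genome, and 102 further probe sets are annotated to 1 ribosomal protein gene together with Gm, LOC, pseudogene or retrogene loci only. Letting these stand for a gene, an alternative chosen after seeing the data, gave 67 measured genes. Of these 37 were higher and 30 lower with Wnt3a, the median difference was 0.0047, and 4 differed by at least 0.1, all upward. The representative probe set changed for 11 members and 24 genes were added. The added genes ran from -0.033 (Rps12) to 0.093 (Rpl28), and among them Rpl3, a protein close to the peptidyl transferase centre, was at -0.012, Rpl5, the partner of Rpl11 in binding Mdm2, at 0.0072 and the stalk protein Rplp1 at 0.0037. Cross-hybridisation between a gene and its copies was not tested.

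Dimmer probe sets of ribosomal protein genes lay lower than brighter ones of the same gene more often than the reverse. In 36 genes with a probe set at 14 or more and another from 6 to 14, shared probe sets included, the dimmer ones had the lower mean difference in 26 genes and the higher in 10, with a median gap of -0.051. With single-gene probe sets alone it was 11 of 13 genes, with a median gap of -0.058. In 23 genes outside the family with both kinds of probe set it was 11 genes against 12, with a median gap of 0.0046. Rpl23 had the widest gap, with a dim probe set at 354 with Wnt3a and 454 in the control (-0.36) and 3 bright ones from -0.029 to -0.0030. Rpl3 was at -0.22 on a dim probe set, and Rpl5 at -0.17 and -0.11, both near 0 on bright ones. Single-gene probe sets of the members between 6 and 10 were lower in 13 of 17 cases (76.5%), and with the shared ones included in 19 of 32 (59.4%), beside 50.2% of all probe sets in that range. These probe sets share their gene, array and sometimes sequence, so they are not independent, and the pattern was noticed in the data and has no test. The 3′ to 5′ signal gap of the Actb control probe sets was 0.60 with Wnt3a and 0.56 in the control on the log2 scale, and that of Gapdh was -0.040 with Wnt3a and -0.022 in the control. The part of RNA quality in the pattern was not tested.

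**Figure D3:**
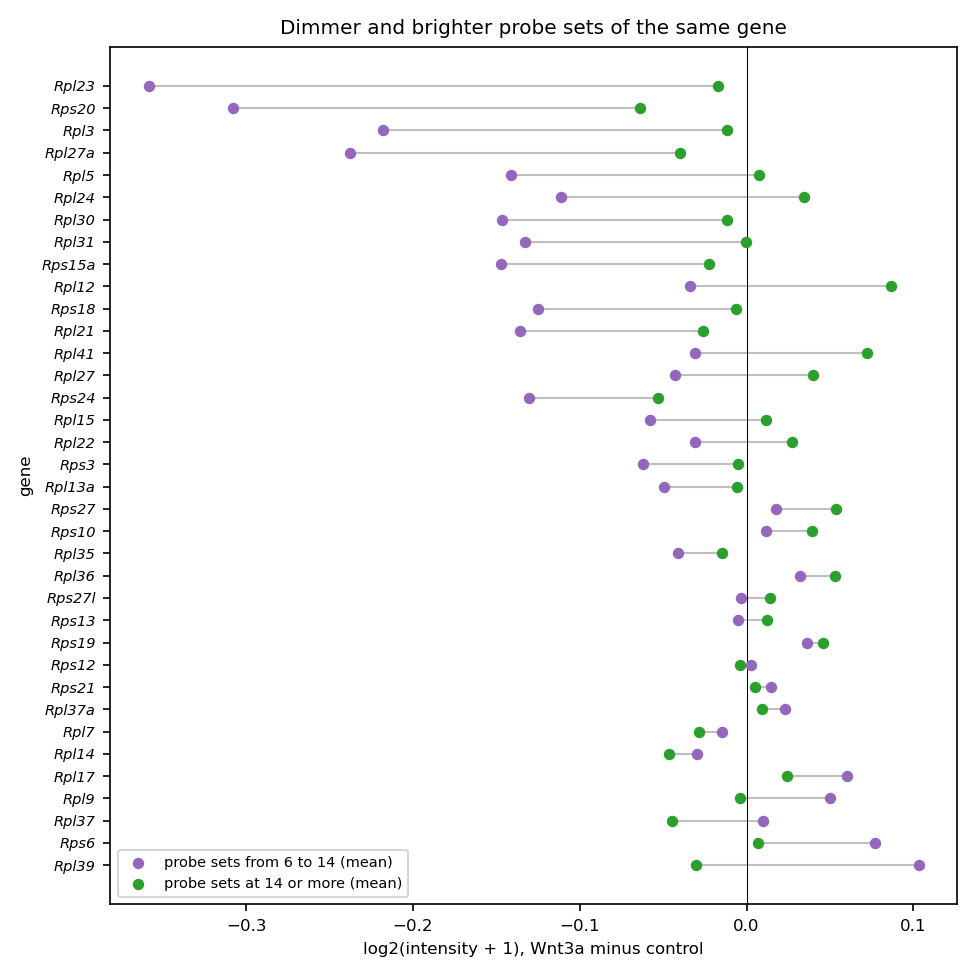
Mean difference (x axis, log2, Wnt3a minus control) of the dimmer probe sets (6 to 14, purple) and the brighter ones (14 or more, green) of the same ribosomal protein gene (y axis), shared probe sets included. In 26 of 36 genes the purple point lies left of the green one, by the most in Rpl23.

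Repeat probe sets give the only measure of noise. In the 19 members with at least 2 single-gene probe sets at the floor the pooled SD between probe sets of a gene was 0.070, and in 8 of the 19 they shared a sign. Over all 5084 genes with such probe sets the SD was 0.12 and 54.7% shared a sign. The 19 members had 67 such probe sets and the 5084 genes 13446. The members thus had more per gene, which makes a shared sign rarer, and they were mostly brighter. Neither the shares nor the SDs can therefore be compared directly. Of the measured members only Rpl11, Rps9, Rpl41, Rpl39 and Rpl27a differed by at least 0.1, and Rpl27a alone by more than 0.2. Noise between cultures or hybridisations was not measured.

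The other genes of the translation machinery were set beside the ribosomal proteins. None of their members differed by 1.5-fold. Of 24 measured translation factors and other TOP transcripts, 10 were higher and 14 lower (median -0.0062). The helicase gene Eif4a2 was at -0.27, Hnrnpa1 at -0.19, the initiation factor gene Eif3a at -0.15 and Fau, whose product carries ribosomal protein eS30, at 0.21. Of 15 genes of initiation and mTORC1 control 8 were higher and 7 lower (median 0.0063). Eif1a, a factor of start-codon scanning, was at -0.42, Rps6kb2, an S6 kinase gene, at 0.18, and the mTORC1 genes Rptor and Mtor at 0.14 and 0.11.

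The mitochondrial ribosomal proteins, which translate the few mRNAs of the mitochondrial genome, had 23 higher and 51 lower of 76, with a median of -0.044, and Mrpl54 was highest at 0.28. Of 40 ribosome biogenesis genes 5 were higher and 35 lower (median -0.12). Tsr1, a late assembly factor of the small subunit, was at 10.69 with Wnt3a and 11.10 in the control (-0.42). Rrs1, a factor of large subunit assembly, was at 11.76 with Wnt3a and 12.13 in the control (-0.36), and Gar1 and Wdr43 were at -0.32 and -0.31. At least 0.1 lower were 23 of the 40 biogenesis genes and 15 of the 76 mitochondrial ones, beside 23.6% of all measured genes. Of the cytosolic ribosomal proteins it was 1 of 42, but 32 of the 42 lay at 14 or more. There 2 of all 207 probe sets were that much lower, beside 1019 of 5111 from 10 to 14. Of those 207, however, 120 belong to ribosomal protein genes, shared ones included, with 0 that much lower. The 207 are therefore no background apart from the family. Of the 42 non-member genes at 14 or more on both arrays, 1 was that much lower. The part of brightness in these counts was not tested, the difference between the lists has no test, and under spike-in scaling the biogenesis median was 0.069.

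**Figure D4:**
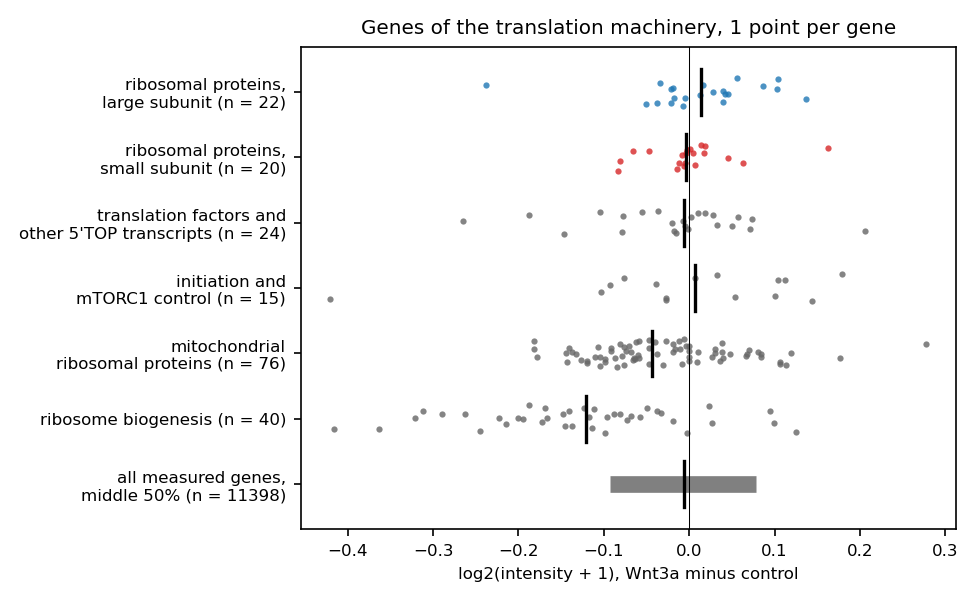
Difference per gene (x axis, log2, Wnt3a minus control) for ribosomal proteins of each subunit and 4 other lists (y axis), with vertical bars at the medians and a grey bar over the middle 50% of all measured genes. Points of both subunits gather near 0, while 35 of 40 ribosome biogenesis genes lie below 0.

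Promoter features were counted in the same 48 windows, as a description. A start on C followed by at least 4 pyrimidines was found in 8 of the 48 member windows (16.7%) and in 2.51% of all 32851 windows. Measured genes with such a start had a median difference of 0.0046 (8 genes) and those without one of 0.0062 (29 genes). With a pyrimidine run near the start, as printed above, the shares were 45.8% of member windows and 21.0% of all, and the medians -0.0086 (21 genes) and 0.015 (16 genes). The ETS-type motif CCGGAAG, sought on both strands from 250 bases before to 50 after the start, was in 41.7% of member windows and 8.86% of all, and AAGATGG, part of the YY1 motif, in 14.6% and 6.34%. The E-box CACGTG, which Myc and other factors bind, was in 10.4% of member windows and 7.15% of all, and TATAAA in 10.4% and 13.6%. The TCF/LEF-type letters CTTTGAT and CTTTGAA were in 0 of 48 member windows and in 3.73% and 5.14% of all. The motifs do not contain one another, and a match or its lack says nothing of binding.

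Checks of the samples used the same arrays. Axin2, a direct Wnt target, read 10.25 with Wnt3a and 6.64 in the control on the log2 scale, in the direction of the labels. All 5 myoblast markers (Myod1, Myf5, Pax7, Des and Cdh15) were measured. Myf5 was at 0.49, Des at 0.32, Cdh15 at 0.024, Pax7 at -0.12 and Myod1 at -0.13 (Wnt3a minus control). Of the listed markers of other cells, 0 of 6 fibroblast, 3 of 6 leukocyte and 2 of 5 endothelial genes reached the floor, none above 6.99 on the log2 scale. The measured leukocyte markers Laptm5, Lyz2 and Csf1r were lower with Wnt3a (median -0.20). Of the endothelial ones Tek was at 5.34 with Wnt3a and 6.16 in the control (-0.82) and Kdr at 6.06 on both arrays. Lyz2 and Tek reached the floor in the control array only, so the floor itself favours a lower value with Wnt3a for them. Below the floor on both arrays, Ptprc, Cd68 and Adgre1 of the leukocyte list were higher with Wnt3a (0.29, 0.35 and 0.24). Of the endothelial list Cdh5 and Emcn were higher there (0.034 and 0.15) and Pecam1 was lower (-0.079). The listed markers of these cells thus shared no direction. The part of these cells in the differences of the ribosomal and biogenesis lists was not tested. In bulk cultures, fewer cells of a type and less RNA per cell cannot be told apart.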

How the data were processed

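Total RNA of 2 cultures, 1 with and 1 without Wnt3a, was labelled with an Affymetrix 3′ expression kit per the labels' protocols. The authors deposited 1 intensity per probe set and array, on a linear scale. The submitters' processing notes list limma, RMA and affy without versions or settings. The authors' genome build was not given in the sources used here.

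Differences are log2(intensity + 1), Wnt3a minus control, with a floor of 6. The plan held no test, since 1 array per group allows none. Probe sets were named from GEO's platform annotation. Named genes were the 10 highest and 10 lowest measured members and a fixed set with known roles. Of the fixed set Rpl36a, Rpl36al and Rps27a were not analysed here. Up to 4 genes of each other list were named. The members and lists were chosen with earlier results of these data known. A planned comparison of protein sequences was not made. Alternatives were no pseudocount, other probe sets, other floors, a loess trend (span 0.3), quantile, median and spike-in scaling and a wider membership. The procedure was tested on simulated data. Python 3.11.15, numpy 2.4.6, pandas 2.3.3, statsmodels 0.14.6 and matplotlib 3.10.9 were used.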

Additional observations from a re-analysis of the deposited data

How the results depend on the processing

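The median difference of the measured ribosomal proteins lay between -0.034 and 0.0047 in all alternatives except spike-in scaling, so its sign is not settled, and in none did a member reach 1.5-fold. Spike-in scaling gave a median of 0.19, with 41 members higher, 1 lower, 41 at least 0.1 higher and 0 at least 0.1 lower, and medians of 0.15 for mitochondrial ribosomal proteins, 0.069 for biogenesis, 0.18 for translation factors and 0.20 for initiation and mTORC1 control. Without probe sets that can match several transcripts (21 members left), 7 were higher, 1 by at least 0.1, and 5 were at least 0.1 lower. With the second brightest probe set (19 members left) 8 were higher, 0 by at least 0.1, and 11 lower. The counts at least 0.1 higher and lower were 2 and 3 when a gene's probe sets were averaged. The loess correction gave 2 members at least 0.1 higher, with 20 higher and 22 lower by any amount. With the median of all measured genes at 0, 26 members were higher and 16 lower. At least 0.1 lower were 0 members with a floor of 8, with shared probe sets (37 higher) and with members at 10 or more, and 2 with Fau, Rpl22l1 and Rpl7l1 added. A step of 0.05 gave 7 higher and 5 lower, and one of 0.2 gave 0 higher. The cause was not tested beyond the smaller number of genes where stated. No paired analysis was possible because each group has 1 array, and for the same reason no array could be left out. The number of arrays limits every value.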

Other observations

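Fau, which encodes a fusion of a ubiquitin-like protein with ribosomal protein eS30, was at 13.29 with Wnt3a and 13.08 in the control on the log2 scale (0.21), above the highest measured member, Rps9 (0.16). Rps3a1, a small-subunit protein whose symbol falls outside the naming rule, was at 14.51 with Wnt3a and 14.52 in the control on the log2 scale (-0.0070). Rpl22l1, a paralog of Rpl22, was at 13.63 with Wnt3a and 13.65 in the control (-0.025), beside 0.027 for Rpl22. Rpl7l1, a relative of Rpl7, was at 11.33 with Wnt3a and 11.48 in the control (-0.15), beside -0.019 for Rpl7.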
